A study of Homo sapiens with 24 samples.

Results

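The comparison described here set polyploid giant cancer cells (PGCC) against their parental cells when both had received LCL521. It used 12 of the 24 RNA-seq libraries of the series, chosen by label alone: 6 of parental cells with LCL521 and 6 of PGCC with LCL521. All were made from PPC1, a human prostate cancer line. Parental cells were not irradiated and were exposed to 5 µM LCL521 for 5 h on day 5 before harvest, by the day count of the labels. The study's methods give a lower day number, and its discussion counts the days to collection from irradiation. PGCC arose after 8 Gy of radiation, given on day 2, and were likewise exposed to 5 µM LCL521 on day 5, trypsinized and caught on a 20 micron filter, which keeps the large cells. Parental cells were not passed through that filter, so irradiation, the days after it and selection by size cannot be told apart in any difference below. The experiment was done 6 independent times with all conditions harvested in parallel, and libraries with the same replicate number were compared with each other. The other 12 libraries hold the same contrast without drug and serve only as a comparison.

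PGCC are large cells with multiple or oversized nuclei that form in many tumours after radiation or chemotherapy, as cells copy their genome without completing division. They can persist while other cells die and can later give rise to small dividing progeny. LCL521 is a pro-drug that collects in lysosomes and inhibits acid ceramidase, the product of ASAH1, which cleaves ceramide into sphingosine and a fatty acid.

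Reads had been counted on 48162 genes, and 13818 of them had enough counts to be tested. The totals lay between 15573469 and 19120559 counts per library, at which 3 counts, taken here as the floor of detection for counting error only, corresponded to between 0.157 and 0.193 CPM, the counts of a gene scaled to a common library size. The keratins KRT8 and KRT18 and vimentin, markers of a carcinoma line in culture, were detected in every library, while the epithelial adhesion gene EPCAM had at most 12 counts. Most markers of other cells were low: HBB had 0 counts throughout, and CD3E and CD68 had at most 2. The leukocyte gene PTPRC had between 6 and 38 counts in parental cells and between 30 and 60 in PGCC. COL1A2, a fibroblast marker, was not low, with between 710 and 1761 counts in parental cells and between 1184 and 2999 in PGCC. KRT8 had between 833 and 1281 and between 2381 and 4182. Of 20 markers of fibroblasts, endothelium, leukocytes, red cells and neural cells, 7 could be tested, 6 were higher in PGCC and 0 lower. Their summed level was between 54.8 and 118.1 CPM in parental cells and between 95.3 and 220.2 in PGCC, nearly all of it from the 6 fibroblast markers, and the summed leukocyte level reached 2.22 and 3.91 CPM. The part of other cells in the results was not tested. Replicates 4 and 5 stood apart from the other replicates in both groups, on a second principal component with 17.2% of the variance. The first component held 59.1% and separated PGCC from parental cells. In bulk RNA a change in the number of cells of a kind and a change in RNA per cell cannot be told apart, and CPM are shares of a library, not amounts per cell, which matters for cells as large as PGCC.

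Under LCL521 the transcriptome of PGCC differed from that of parental cells at 7780 genes, which is 56.3% of those tested, by edgeR's quasi-likelihood test with the replicate number as a block and Benjamini-Hochberg adjustment. In PGCC 4070 genes (29.5% of those tested) were higher and 3710 (26.8%) were lower. Read against that background, a list with some 3 in 10 of its members higher is like the genome as a whole. In every list below, a member with enough counts only in PGCC had to be higher there. Counts of list members are therefore a description. The sizes were lopsided. Among the called genes, 1643 were higher by more than 1 on the log2 scale and 326 were lower by as much. Past 2 on that scale the counts were 546 and 25, and past 3 they were 183 and 1. The median of all genes was 0.01. The direction was the same in all 6 pairs for 6637 of the 7780 genes, and in 3873 genes (28% of those tested) the 6 libraries of PGCC did not overlap with the 6 of parental cells. Without the block 6758 genes passed (48.9%).

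**Figure D1:**
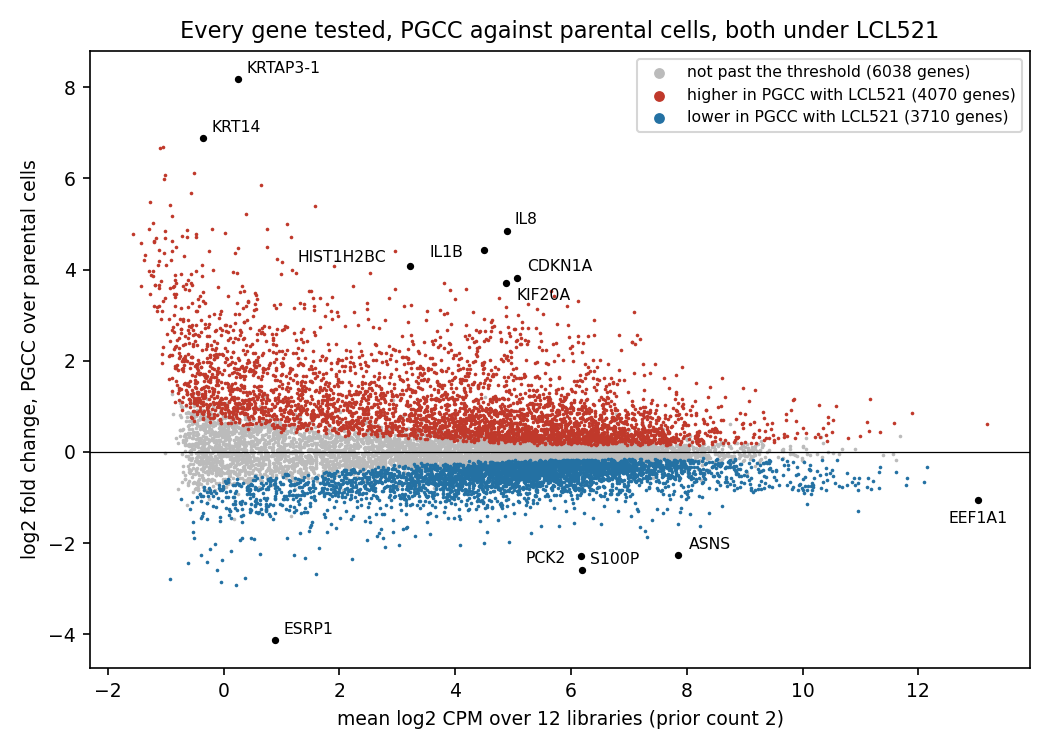
Each point is a gene; the horizontal axis is its mean log2 CPM over the 12 libraries and the vertical axis its log2 fold change, PGCC over parental cells. Genes past the threshold are red (4070 higher) or blue (3710 lower), and the points far from 0 lie mostly above it.

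Among well expressed genes, the largest rises were a mixture of cytokines, a cell cycle inhibitor, a histone and genes of cell division. IL8 (ENSG00000169429, chromosome 4, 74606223 to 74609433, plus strand of hg19), which encodes a chemokine for neutrophils, led them. It lay between 3.26 and 10.2 CPM, median 6.05, in parental cells and between 31.0 and 485 CPM, median 227, in PGCC, a change of 4.85 on the log2 scale (standard error 0.55, edgeR adjusted p = 7.78e-05). The groups did not overlap, but replicates 4 and 5 of PGCC, at 51.5 and 31.0 CPM, were far below the other PGCC libraries, and the change was 5.77 over replicates 1, 2, 3 and 6 but 2.68 over replicates 4 and 5. IL1B, the cytokine interleukin 1 beta, rose by 4.42 from 5.02 ± 1.86 CPM (SD, n = 6) to 108 ± 29.1 CPM (SD, n = 6). The histone HIST1H2BC rose by 4.07, the metalloprotease ADAM12 by 3.71, the mitotic kinesin KIF20A by 3.70, the carboxypeptidase CPA4 by 3.58, the receptor tyrosine kinase ALK by 3.55, the scaffold protein IQGAP3 by 3.54 and the axonemal dynein DNAH5 by 3.42. All of these were higher in 6 of 6 pairs, as the rule that chose them required, with edgeR adjusted p-values between 1.15e-07 and 7.78e-05. CPA4 varied most between the replicate sets, at 3.01 over replicates 1, 2, 3 and 6 but 6.25 over replicates 4 and 5.

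The largest fall among well expressed genes was that of S100P (ENSG00000163993, chromosome 4, 6694796 to 6698897, plus strand), which encodes a secreted calcium-binding protein. It lay between 153 and 232 CPM, median 174, in parental cells and between 22.0 and 38.9 CPM, median 31.3, in PGCC, a change of -2.60 on the log2 scale (standard error 0.18, edgeR adjusted p = 4.32e-06). All PGCC libraries were below all parental libraries. Next came PCK2, the mitochondrial enzyme that makes phosphoenolpyruvate, at -2.29, and asparagine synthetase, ASNS, at -2.27. The matrix protein periostin, POSTN, changed by -2.05, the membrane adaptor ANK2 by -2.03, the zinc finger gene ZNF467 by -1.99, the kinase CAMKK1 by -1.99, the somatostatin receptor SSTR5 by -1.86, ZBTB12 by -1.84 and the glutamate transporter SLC1A3 by -1.80. By the rule that chose these 10 genes, no PGCC library overlapped with a parental library. The only called fall past 3 on the log2 scale was that of ESRP1, an epithelial splicing regulator, which fell by 4.12. It lay between 1.11 and 58.4 CPM, median 3.57, in parental cells and between 0.335 and 0.633 CPM, median 0.483, in PGCC. Parental replicates 4 and 5, at 58.4 and 28.5 CPM, were far above the other parental libraries, and the change was -2.11 over replicates 1, 2, 3 and 6 but -6.64 over replicates 4 and 5.

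A further 46 genes had at most 3 counts in every parental library and at least 10 in every PGCC library, and 0 genes showed the reverse. With so few counts in parental cells no fold is given for them. The 5 with the most counts in PGCC were the keratin-associated gene KRTAP3-1, the basal keratin KRT14, the hair keratins KRT38 and KRT37, and the channel subunit UNC80. KRTAP3-1 had between 0 and 2 counts in parental cells and between 83 and 276 in PGCC, and KRT14 had between 0 and 2 and between 50 and 111. Reads of keratin genes and their pseudogenes can be shared, so these counts are uncertain as to the member.

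Genes of cell division rose together. The 21 genes of kinesins and cytokinesis that could be tested, of 21 in the table, were higher in PGCC without exception, with no overlap between groups for any of them and a median log2 fold change of 2.37, against 0.01 over all genes. Over all genes tested, 15.2% were higher with no overlap. KIF20A, which carries the chromosomal passenger complex to the spindle midzone, lay between 4.86 and 16.7 CPM, median 7.22, in parental cells and between 92.0 and 121 CPM, median 111, in PGCC. ANLN, which scaffolds the contractile ring, rose by 3.20, and CEP55, which brings the abscission machinery to the midbody, rose by 3.15. Smaller rises were measured for RACGAP1 (1.98) and ECT2 (1.79), which activate RhoA at the cell equator.

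Of the 27 mitotic entry kinases, phosphatases and their partners tested, 25 rose and 0 fell, with a median of 2.38. PLK1, a kinase that drives entry into mitosis, lay between 20.2 and 63.7 CPM, median 28.9, in parental cells and between 149 and 192 CPM, median 168, in PGCC, a change of 2.38 (standard error 0.19, edgeR adjusted p = 8.87e-06). In parental cells the libraries of replicates 4 and 5 were the highest of the 6, and the groups did not overlap. MYBL2, a transcription factor of the cell cycle, rose by 3.31, the passenger complex kinase AURKB by 3.00, the kinase CDK1 by 2.57 and its cyclins CCNB1 and CCNB2 by 1.86 and 2.54. The proliferation marker MKI67 rose by 2.43 and FOXM1, a transcription factor of the G2 phase, by 2.13. WEE1, which holds CDK1 inactive, was at 0.47 (edgeR adjusted p = 0.0644) and FZR1, an activator of the anaphase-promoting complex, at -0.0025 (edgeR adjusted p = 0.984), and neither passed, though WEE1 did without replicate 2, at 0.59 (edgeR adjusted p = 0.0393).

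Centromere, kinetochore and spindle checkpoint genes followed, with 38 of 43 higher, 2 lower and a median of 1.76. CENPI, part of the constitutive centromere network, rose by 3.39, the microtubule-binding NDC80 by 2.69 and the checkpoint kinase BUB1B by 2.30. The members that fell were MIS12 (-0.25) and PMF1 (-0.42), both of the complex that links the centromere to NDC80. MIS12 did not pass without replicate 2, 3 or 4, where its edgeR adjusted p lay between 0.0659 and 0.0900.

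Genes that copy DNA also rose, by less. Of 55 replication licensing and fork genes, 45 were higher and 3 lower, with a median of 1.00. CDC45, which completes the replicative helicase, rose by 2.74 from 9.90 ± 3.06 CPM (SD, n = 6) to 64.2 ± 5.37 CPM (SD, n = 6). The licensing factors CDC6 and CDT1 rose by 1.65 and 1.21 and the DNA ligase LIG1 by 1.71. CDT1 was at 0.49 over replicates 1, 2, 3 and 6 but 2.84 over replicates 4 and 5. The helicase subunits were not uniform: MCM5 rose by 1.36 and MCM2 by 1.00, while MCM6 fell by 0.40 (-0.05 over replicates 4 and 5, with overlapping groups). MCM5 was at 0.80 over replicates 1, 2, 3 and 6 but 2.57 over replicates 4 and 5. In the origin recognition complex ORC6 rose by 2.02, while ORC2 fell by 0.58 and ORC4 by 0.38. MCM6 did not pass without replicate 2 (edgeR adjusted p = 0.0799) or 3 (edgeR adjusted p = 0.0755). PCNA, the sliding clamp, was at 0.64 and did not pass (edgeR adjusted p = 0.0913), but did without replicate 3 (edgeR adjusted p = 0.0438). The list's median was 0.77 over replicates 1, 2, 3 and 6 but 1.46 over replicates 4 and 5.

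The supply of deoxynucleotides was mixed, with 11 of 21 genes higher and 5 lower. RRM2, the regulated subunit of ribonucleotide reductase, lay between 21.3 and 72.7 CPM, median 52.5, in parental cells and between 289.8 and 459 CPM, median 444, in PGCC, a change of 3.07 (standard error 0.16, edgeR adjusted p = 1.20e-06). The PGCC libraries of replicates 4 and 5 were the lowest of their group and still above every parental library. Thymidine kinase, TK1, rose by 3.25. The alternative small subunit RRM2B fell by 0.43, and DHODH, the mitochondrial enzyme of pyrimidine synthesis, fell by 1.25.

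Only 28 of 70 replication-dependent histone genes passed the filter on low counts, and a gene that passed it through PGCC alone had to be higher there, so their count is a description: 26 were higher and 0 lower. These mRNAs lack a poly(A) tail in dividing cells, so how a library captures them depends on its preparation, and their near-identical copies share reads. HIST1H2BC lay between 1.34 and 3.47 CPM, median 2.23, in parental cells and between 33.5 and 42.3 CPM, median 37.8, in PGCC. HIST2H2BE rose by 3.37 to 87.5 ± 12.6 CPM (SD, n = 6). All replication-dependent histone genes together took 0.0549% ± 0.00528 of counts in PGCC and 0.0181% ± 0.00326 in parental cells (SD, n = 6), higher in 6 of 6 pairs (exact paired permutation test, two-sided, p = 0.03125, the smallest that 6 pairs allow). PLK1, RRM2 and the histones are among the genes in the plot of levels by pair.

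Homologous recombination and Fanconi genes, which repair broken and crosslinked DNA, were higher in 24 of 32 cases and lower in 3. The helicase BRIP1 rose by 2.99, the nuclease EXO1 by 2.47 and FANCD2 by 2.14. Against them FANCF fell by 1.53, NBN by 0.60 and PALB2 by 0.50.

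**Figure D2:**
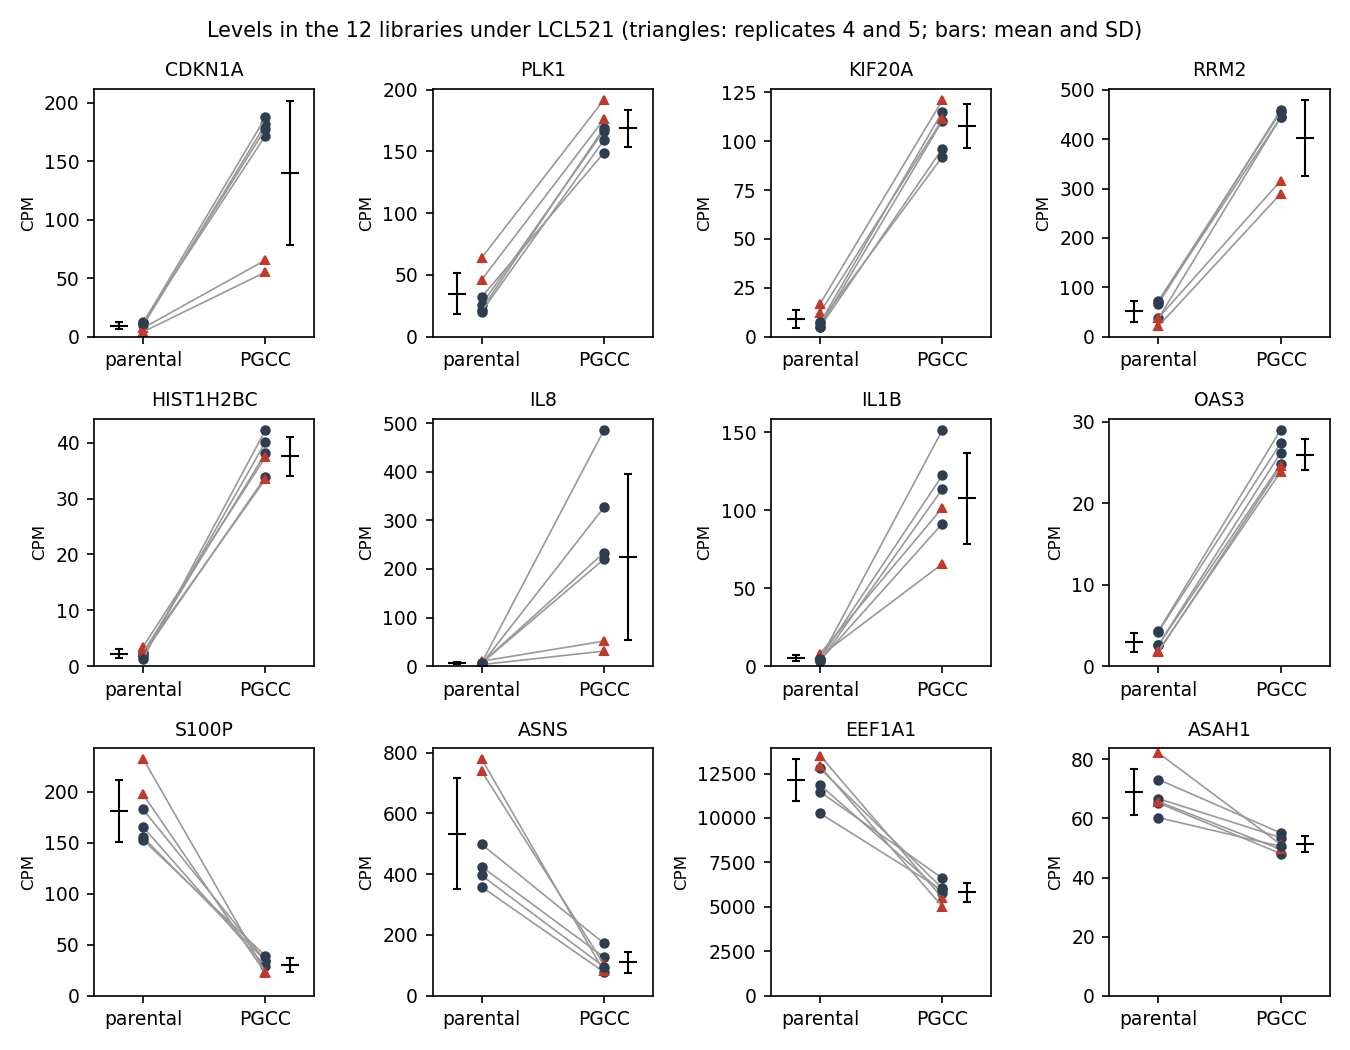
CPM of 12 genes in each of the 12 libraries, parental cells on the left and PGCC on the right of each panel, with grey lines joining same-numbered libraries, red triangles for replicates 4 and 5, and bars for the mean and SD (n = 6). The groups do not overlap in any panel; IL8 and CDKN1A in PGCC are lower in replicates 4 and 5 than in the others.

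CDKN1A, the CDK inhibitor p21, rose beside the division genes. It lay between 4.12 and 12.4 CPM, median 10.5, in parental cells and between 55.2 and 188 CPM, median 175, in PGCC, a change of 3.82 (standard error 0.13, edgeR adjusted p = 2.63e-07). The PGCC libraries fell into 4 near the top of that range and replicates 4 and 5 near its bottom, and none overlapped with parental cells. Cyclins and CDK inhibitors as a list, CDKN1A included, did not move together: 10 of 28 were higher, 7 lower and the median was 0.03, close to all genes. CDK2 rose by 1.40, E2F1 by 1.84 and RB1 by 0.93. Cyclin E1, CCNE1, fell by 1.76, CDKN2A, which encodes p16 and ARF, by 0.91, and CDK4 by 0.54. E2F1 was at 1.10 over replicates 1, 2, 3 and 6 but 3.56 over replicates 4 and 5, and CCNE1 was at -2.27 and -0.42. Of 29 known p53 targets 9 were higher and 5 lower over the 6 pairs. Over replicates 1, 2, 3 and 6 alone 14 were higher and 6 lower, and their median was 0.24 there but -0.14 over replicates 4 and 5. DDB2 rose by 2.05, PLK2 by 1.96 and the death receptor FAS by 1.48, while ZMAT3 fell by 1.13, and MDM2 (-0.13, edgeR adjusted p = 0.15) and BAX (0.01, edgeR adjusted p = 0.938) did not pass.

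The promoters of the division gene lists were read for short letter patterns, as a description, whichever way a gene had moved. Sequences are those of RefSeq on GRCh38.p14 from 250 bases before to 50 bases after each start, available for 10320 of the 13818 genes tested. Patterns were counted on either strand, and some were chosen after the changes were known. The 27305 promoters set beside the lists include those of genes not tested here, and no share over the tested genes alone was taken. E2F factors read TTTGGCGC and similar letters. One of TTTGGCGC, TTTGGCGG or TTTCCCGC stood in 22 of 48 replication promoters (45.8%), against 2.95% of all 27305 promoters. TTTGAA, known from many G2 and M phase promoters as the cell cycle homology region, stood in 15 of 20 cytokinesis promoters (75%), 10 of 20 of mitotic entry (50%) and 18 of 35 of kinetochore genes (51.4%), against 15.4% of all promoters. The CCAAT box stood in 15 of 17 histone promoters (88.2%) and 15 of 20 of mitotic entry (75%), against 35.7% of all promoters, with 14 of 20 for cytokinesis and 21 of 35 for kinetochore genes. MCM6, which fell, holds E2F letters as well, so a match does not tell the direction.

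Stretches around the matches are shown for 6 of the risen genes, 5′ to 3′ on the gene's strand, with the matching letters in capitals. The first 3 carry E2F letters and the last 3 carry TTTGAA on either strand. They are CDC45 at chr22:19479870-19479919 (plus strand), LIG1 at chr19:48170426-48170483 (minus), CDC6 at chr17:40287826-40287878 (plus), ANLN at chr7:36389811-36389861 (plus), CCNB2 at chr15:59105092-59105145 (plus) and PLK1 at chr16:23678835-23678888 (plus).
CDC45: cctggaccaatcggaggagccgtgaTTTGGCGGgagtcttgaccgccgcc
LIG1: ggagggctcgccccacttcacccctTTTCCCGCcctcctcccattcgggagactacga
CDC6: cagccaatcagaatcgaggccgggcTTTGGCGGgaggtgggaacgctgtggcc
ANLN: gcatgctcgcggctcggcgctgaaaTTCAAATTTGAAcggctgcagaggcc
CCNB2: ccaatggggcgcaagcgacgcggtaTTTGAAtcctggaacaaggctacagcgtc
PLK1: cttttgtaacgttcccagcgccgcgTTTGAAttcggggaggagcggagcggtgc

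Inflammatory genes were the other large group of rises. NF-kappaB is a family of transcription factors held in the cytoplasm by inhibitors and released by cytokines, DNA breaks and other stress, and its targets include those inhibitors. Interferon-stimulated genes are switched on when cells sense viral or misplaced nucleic acid or receive interferon. Of 38 chemokines and cytokines of the senescence secretome in the table, 22 could be tested, 18 were higher and 2 lower, with a median of 2.14. A gene that passed the filter through PGCC alone had to be higher there, so these counts too are a description.

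IL1B lay between 3.01 and 7.95 CPM, median 4.52, in parental cells and between 65.6 and 151 CPM, median 108, in PGCC. The cytokine IL32 rose by 2.91, the eosinophil chemokine CCL26 by 3.25, CXCL2 by 2.22 and CXCL3 by 2.62. Counts in parental cells were few for IL32 (between 5 and 38), CCL26 (between 7 and 21) and CXCL3 (between 10 and 39). CXCL3 was at 3.55 over replicates 1, 2, 3 and 6 but 0.94 over replicates 4 and 5. CXCL2, whose groups overlapped and which was higher in 5 of 6 pairs, was at 3.25 over replicates 1, 2, 3 and 6 but 0.06 over replicates 4 and 5. LIF, a cytokine of the interleukin 6 family, rose by 1.78 and the macrophage growth factor CSF1 by 1.45. LIF was at 2.45 over replicates 1, 2, 3 and 6 but 0.52 over replicates 4 and 5. TGFA fell by 0.52 and CXCL16 by 0.63, and VEGFA, the endothelial growth factor, was at -0.58 without passing (edgeR adjusted p = 0.173). The list's median was 2.59 over replicates 1, 2, 3 and 6 but 1.08 over replicates 4 and 5.

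Of 27 NF-kappaB subunits and feedback targets, 20 rose and 1 fell. The ubiquitin ligase BIRC3 rose by 3.91, the feedback inhibitor TNFAIP3 by 3.58 from 2.37 ± 0.969 CPM (SD, n = 6) to 30.3 ± 15.8 CPM (SD, n = 6), and the adaptor TRAF1 by 3.19. The inhibitor NFKBIA rose by 1.03, with 1.45 over replicates 1, 2, 3 and 6 but 0.11 over replicates 4 and 5 and overlapping groups. Among the subunits, RELB rose by 1.17, NFKB2 by 1.14 and REL by 0.51, while RELA (0.0036, edgeR adjusted p = 0.963) and NFKB1 (0.03, edgeR adjusted p = 0.888) did not pass. The list's median was 0.82 over 6 pairs, 0.99 over replicates 1, 2, 3 and 6 but 0.33 over replicates 4 and 5.

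Of 35 interferon-stimulated genes tested, out of 45 in the table, 30 rose and 1 fell, with a median of 1.64. As for the cytokines, a member that passed the filter on low counts through PGCC alone had to be higher, so these counts are a description. OAS3, which makes the 2′-5′ oligoadenylates that activate RNase L, lay between 1.77 and 4.32 CPM, median 2.61, in parental cells and between 23.9 and 29.0 CPM, median 25.5, in PGCC, a change of 3.21 (standard error 0.16, edgeR adjusted p = 9.46e-07). For OAS3 the libraries of replicates 4 and 5 were the lowest of each group, and its change was 2.98 over replicates 1, 2, 3 and 6 and 3.71 over replicates 4 and 5. The list's median was 1.64 and 1.68 in these sets. SAMD9, an antiviral protein, rose by 3.19, the GTPase GBP1 by 3.15, and the RNA sensors DDX58 and IFIH1 by 2.13 and 2.14. GBP1 had between 0 and 29 counts in parental cells. It was at 2.89 over replicates 1, 2, 3 and 6 but 5.73 over replicates 4 and 5. IFIT2 rose by 1.55, IFIT1 by 1.22 and ISG15, a ubiquitin-like modifier, by 0.95. The kinase EIF2AK2 (0.17, edgeR adjusted p = 0.0808) did not pass, except without replicate 2 (edgeR adjusted p = 0.0444), and IFIT5 was the member that fell, by 0.74.

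Genes of antigen presentation by MHC class I were higher in 9 of 14 cases and lower in 0. The trimming peptidase ERAP2 rose by 1.93, beta-2 microglobulin, B2M, by 0.84 and the loading factor TAPBP by 0.85.

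The same reading of promoters was made for these lists. GGANTTTCC, letters bound by NF-kappaB, stood in 6 of 24 promoters of the NF-kappaB list (25%) and 4 of 17 of the cytokine list (23.5%), against 1.64% of all promoters. The letters were in NFKB1, which did not pass, as they were in IL8. The interferon-stimulated response element, searched by its core of TTTC repeated after 2 free bases, stood in 19 of 28 interferon promoters (67.9%) against 3.65% of all, IFIT5 included. Patterns sought in 3 lists described further on were rarer. TGATGNAAT, read by ATF4 with C/EBP partners, stood in 1 of 32 promoters of the ATF4 list, TCACNCCAC of the sterol regulatory element in 1 of 22 sterol promoters, and TCACGTGA, read by TFE factors, in 5 of 32 lysosome promoters (15.6%), against 1.02%, 1.15% and 1.04% of all promoters. Shown are 3 stretches with NF-kappaB letters and 3 with the interferon element: IL8 at chr4:73740453-73740511 (plus strand, RefSeq symbol CXCL8), TNFAIP3 at chr6:137867167-137867225 (plus), IL32 at chr16:3065285-3065363 (plus), IFIT1 at chr10:89392487-89392549 (plus), GBP1 at chr1:89065301-89065360 (minus) and IFI44 at chr1:78649746-78649788 (plus).
IL8: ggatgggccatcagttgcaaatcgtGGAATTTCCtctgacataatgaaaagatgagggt
TNFAIP3: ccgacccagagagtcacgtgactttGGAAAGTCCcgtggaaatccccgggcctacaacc
IL32: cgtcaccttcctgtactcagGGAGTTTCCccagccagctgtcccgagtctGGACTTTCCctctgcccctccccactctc
IFIT1: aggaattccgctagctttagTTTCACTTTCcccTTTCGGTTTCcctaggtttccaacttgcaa
GBP1: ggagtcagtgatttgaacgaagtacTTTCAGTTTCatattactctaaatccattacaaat
IFI44: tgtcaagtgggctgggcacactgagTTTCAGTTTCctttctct

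**Figure D3:**
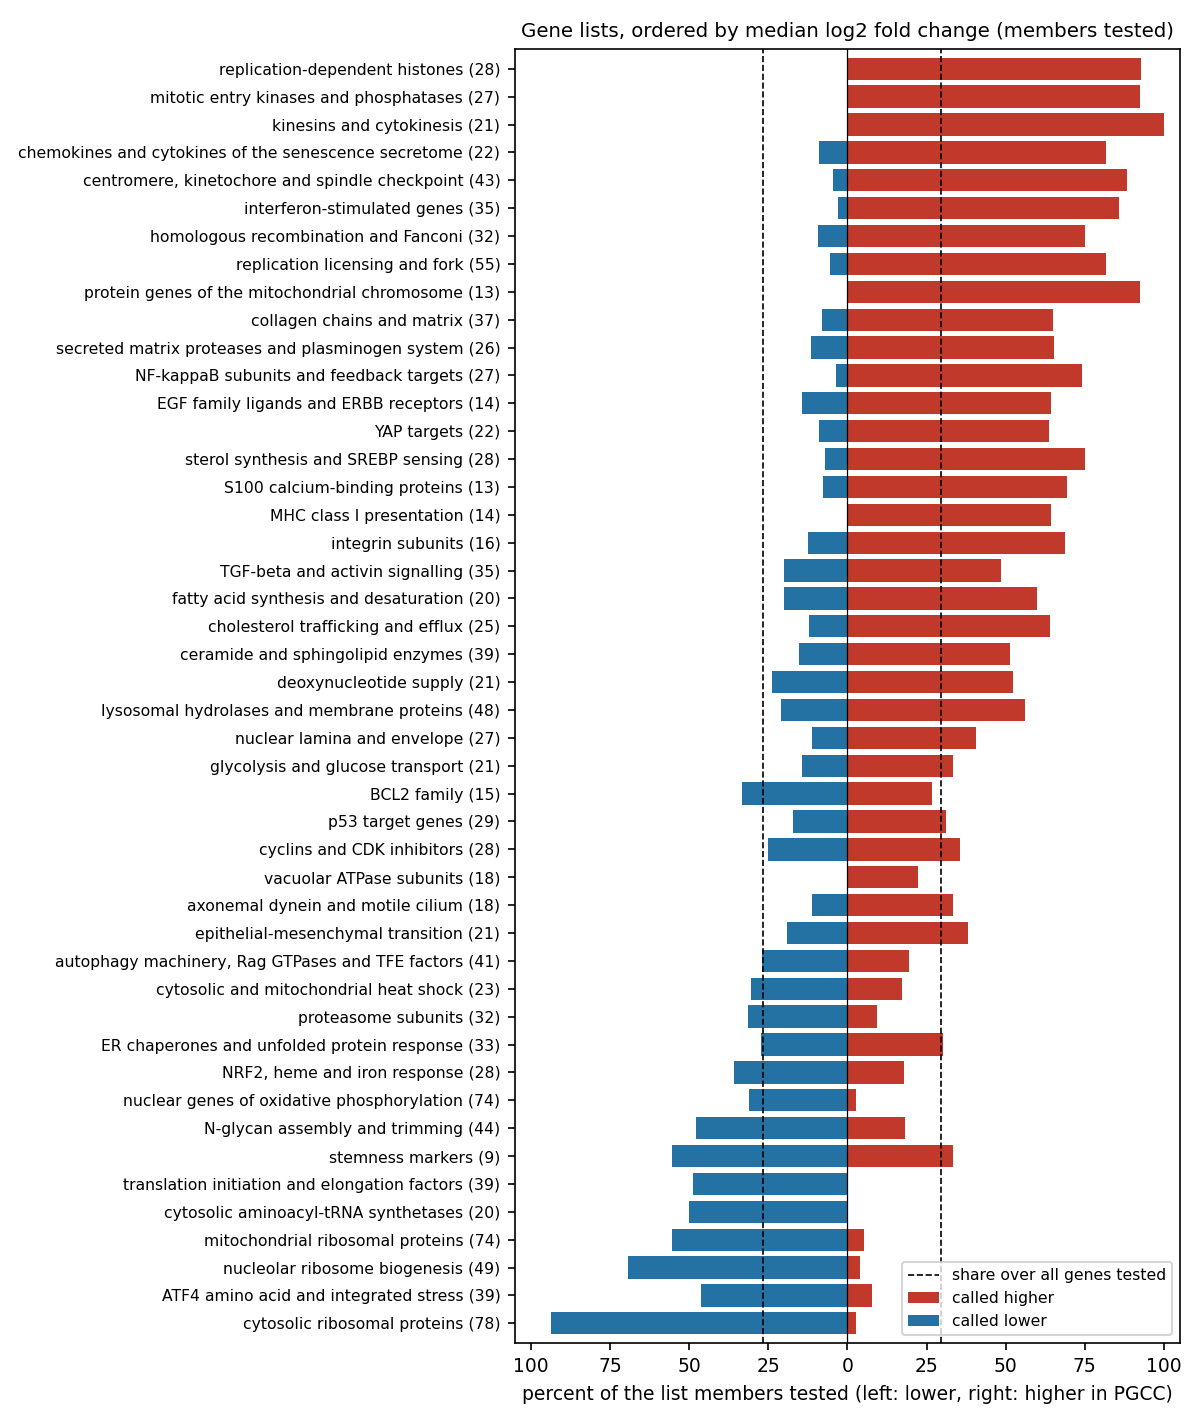
For each of 46 gene lists, the bar to the right is the percent of members tested that were higher in PGCC and the bar to the left the percent that were lower, with the number tested in brackets. Dashed lines mark the same shares over all genes (29.5% higher and 26.8% lower); lists of histones and division stand at the top and ribosomal proteins at the bottom.

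The protein-making machinery moved the other way. Of 78 cytosolic ribosomal protein genes, 73 were lower and 2 higher, with a median of -0.66. Together they took 6.76% ± 0.407 of counts in PGCC and 10.3% ± 1.04 in parental cells (SD, n = 6), lower in 6 of 6 pairs (exact paired permutation test, two-sided, p = 0.03125). RPS24 changed by -0.67 and RPL8 by -0.58. The members that rose, RPS10 (0.66) and RPL26 (the copy ENSG00000161970, 0.46), had means of at most 21.8 CPM, far below most members, and reads of this family are shared with many processed pseudogenes. EEF1A1, the elongation factor that brings tRNA to the ribosome and the gene with the most counts that fell, lay between 10262 and 13512 CPM, median 12323, in parental cells and between 5016 and 6606 CPM, median 5865, in PGCC, a change of -1.06 (standard error 0.09, edgeR adjusted p = 1.92e-05). The groups did not overlap. Beta-actin, ACTB, the next most abundant gene that fell, changed by -0.34, with -0.53 over replicates 1, 2, 3 and 6 but 0.02 over replicates 4 and 5, and did not pass without the block. It did not pass without replicate 1, 2 or 3 either (edgeR adjusted p between 0.0633 and 0.0779).

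Elongation and initiation factors were lower in 19 of 39 cases and higher in 0. EEF2 changed by -0.72 and the initiation factor subunit EIF3E by -0.83, while the scaffold EIF4G1 was at 0.06 (edgeR adjusted p = 0.452). Nucleolar genes of ribosome assembly were lower in 34 of 49 cases, with NPM1 at -0.57 and nucleolin, NCL, at -0.47, and higher in 2, TCOF1 (0.61) and UTP6 (0.29). Mitochondrial ribosomal proteins were lower in 41 of 74 and higher in 4.

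ATF4 is the transcription factor of the integrated stress response and switches on amino acid synthesis and uptake. Of 39 genes of that response, 18 were lower and 3 higher. ASNS lay between 358 and 779.9 CPM, median 462, in parental cells and between 78.0 and 172 CPM, median 99.4, in PGCC. Its 2 highest parental libraries were those of replicates 4 and 5, and no PGCC library reached a parental one. The change was -2.27 (standard error 0.22, edgeR adjusted p = 2.74e-05). The serine synthesis enzymes PHGDH and PSAT1 fell by 1.64 and 1.26 and the pseudokinase TRIB3 by 1.74. ATF3 rose by 2.35 and the cysteine enzyme CTH by 1.80, although ATF3 did not pass without replicate 1, 2 or 3 (edgeR adjusted p between 0.0535 and 0.0552). ATF3 was higher in 4 of 6 pairs, at 3.72 over replicates 1, 2, 3 and 6 but -0.24 over replicates 4 and 5, and CTH was at 2.69 and 0.18 in these sets. The groups overlapped for both genes.

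The balance of calls in this list and the size of its median depended on which replicates were read. Its median was -0.42 over 6 pairs, -0.09 in replicates 1, 2, 3 and 6, where 16 genes were higher and 15 lower, and -1.46 in replicates 4 and 5. ASNS was at -1.88 in the first set and -3.06 in the other. ATF4 itself was at -0.15 and did not pass (edgeR adjusted p = 0.692), with 0.44 and -1.38 in the 2 sets. SESN2, a stress sensor of this list and of the p53 list, had 2.73 over replicates 1, 2, 3 and 6 but -2.04 over replicates 4 and 5, and passed over 5 pairs when replicate 5 was left out (edgeR adjusted p = 0.0410). The cytosolic aminoacyl-tRNA synthetases, many of them ATF4 targets, were lower in 10 of 20 cases and higher in 0, with medians of -0.12 and -0.91 in the 2 sets. WARS fell by 1.33 and SARS by 1.25. What set replicates 4 and 5 apart was not tested.

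**Figure D4:**
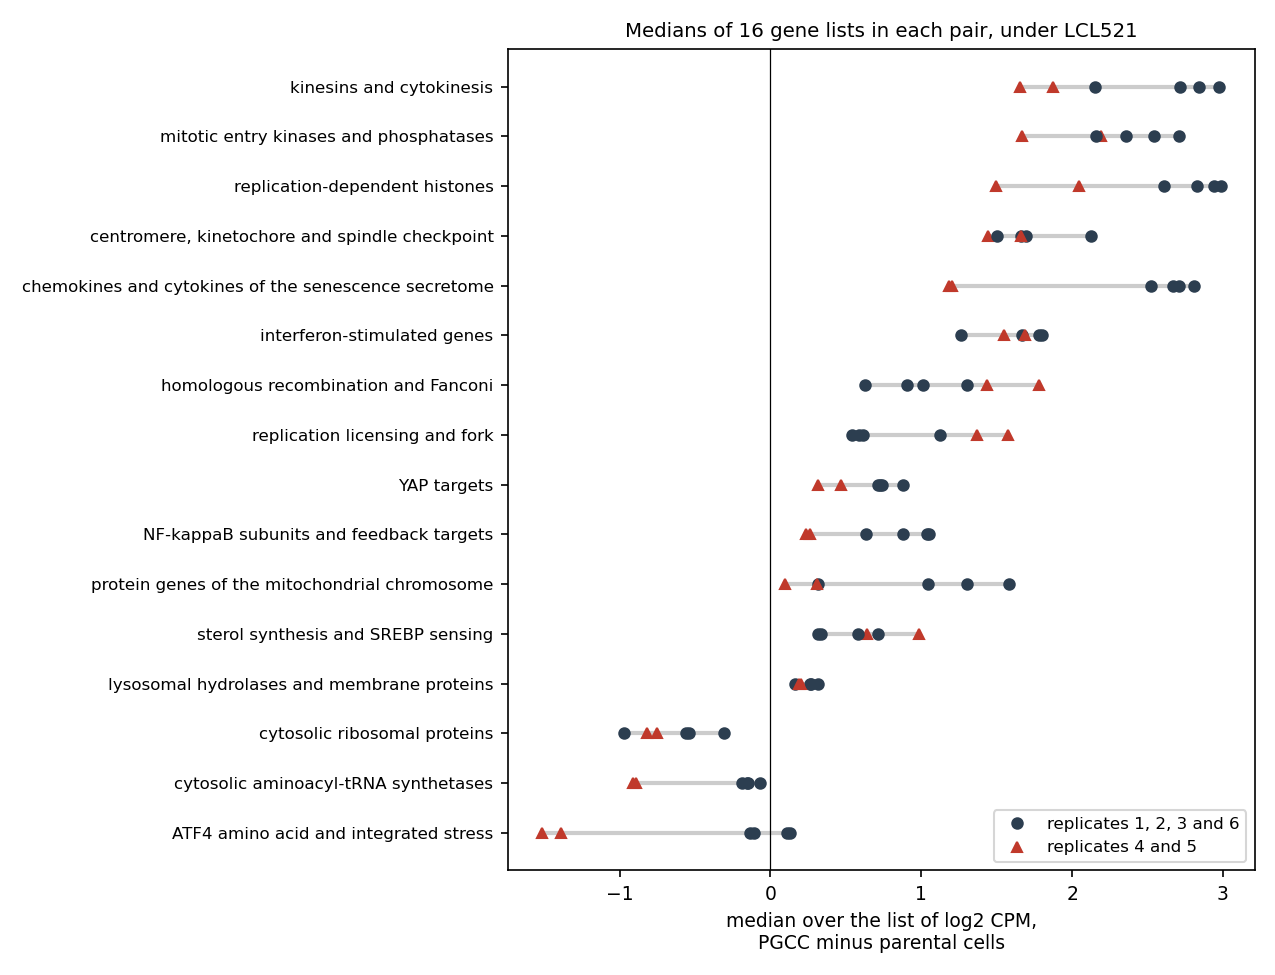
Each point is the median over a gene list of log2 CPM in the PGCC library minus that in the same-numbered parental library, for 16 lists and 6 pairs; red triangles are replicates 4 and 5. Division and interferon lists lie right of 0 in every pair, ribosomal proteins and tRNA synthetases left of it, and the ATF4 list straddles 0 in replicates 1, 2, 3 and 6.

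Lipid genes were of interest because both groups carried an inhibitor of a ceramide enzyme. ASAH1, its target, lay between 60.3 and 82.2 CPM, median 66.2, in parental cells and between 48.1 and 55.1 CPM, median 50.9, in PGCC, a change of -0.42 (standard error 0.07, edgeR adjusted p = 8.45e-04). All PGCC libraries were below all parental libraries. Over the 39 ceramide and sphingolipid genes tested, 20 were higher and 6 lower, with a median of 0.30. Among genes of ceramide synthesis, the serine palmitoyltransferase subunits SPTLC3 and SPTLC2 rose by 1.60 and 0.59 and SPTLC1 fell by 0.22, the desaturase DEGS1 rose by 0.75, and the ceramide synthase CERS2 fell by 0.58 while CERS6 rose by 0.37. UGCG, which glucosylates ceramide, rose by 1.19, and GBA2, which removes that glucose outside the lysosome, fell by 0.96. SPHK1, which phosphorylates sphingosine, rose by 1.12, and SGPL1, the lyase that degrades its product, fell by 0.94.

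The sphingomyelinases, which release ceramide from sphingomyelin, differed by member. SMPD1 was at -0.29 (edgeR adjusted p = 0.14) and SMPD2 at -0.18 (edgeR adjusted p = 0.234), neither passing. SMPD3 rose by 1.32 from 0.535 ± 0.381 CPM (SD, n = 6) to 1.27 ± 0.421 CPM (SD, n = 6), a low level, and SMPD4 rose by 0.37.

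Of 28 genes of sterol synthesis and its sensing, 21 rose and 2 fell, with a median of 0.69. This pathway makes cholesterol from acetyl-CoA and is switched on by SREBP factors when sterol in the ER is low. The early enzymes IDI1 and MVD rose by 1.14 and 1.07 and squalene synthase, FDFT1, by 0.70. INSIG1, which retains the SREBP complex in the ER, rose by 0.69 (standard error 0.11, edgeR adjusted p = 4.81e-04), with overlapping groups. The factor SREBF1 fell by 0.36 and its escort SCAP by 0.24, while SREBF2 was at -0.15 without passing (edgeR adjusted p = 0.264).

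In cholesterol trafficking 16 of 25 genes rose and 3 fell. The efflux pump ABCA1 rose by 2.00, the ester hydrolase NCEH1 by 1.56, and NPC2, which hands cholesterol out of the lysosome, by 1.01. Fatty acid synthesis and desaturation had 12 of 20 higher and 4 lower, with FASN at 0.64 and LPIN1, a phosphatidate phosphatase, at 0.99.

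Lysosomal hydrolases and membrane proteins were higher more often than lower, with 27 of 48 higher and 10 lower. Their median was 0.23, and it was above 0 in 6 of 6 pairs. The glycolipid-degrading enzyme GLA rose by 1.15 and the glycolipid activator protein GM2A by 1.05. The membrane protein TMEM192 fell by 0.91 and the sulfamidase SGSH by 0.84. Of 18 subunits of the proton pump, 4 rose, TCIRG1 most, by 1.50. In the list of autophagy genes, Rag GTPases and TFE factors 8 of 41 rose and 11 fell. Over replicates 1, 2, 3 and 6 alone 13 rose and 10 fell, and the median was 0.04 there but -0.28 over replicates 4 and 5. TFEB, a master factor of lysosome genes, fell by 1.74 from 4.95 ± 1.24 CPM to 1.45 ± 0.237 CPM (SD, n = 6), and the Rag GTPases RRAGB and RRAGA by 1.20 and 0.38. RRAGC was at -0.02 (edgeR adjusted p = 0.88) and STX3, a syntaxin of membrane fusion, at 0.25 (edgeR adjusted p = 0.101). STX3 passed in replicates 1, 2, 3 and 6 alone, at 0.47 (edgeR adjusted p = 2.24e-04), and had -0.21 in replicates 4 and 5. It also passed without replicate 4 (edgeR adjusted p = 0.0247) or 5 (edgeR adjusted p = 0.0356).

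Genes of the cell surface and matrix rose more often than they fell. Of 37 collagen chains and matrix genes 24 were higher and 3 lower. The basement membrane chain COL4A6 rose by 3.36 and fibronectin, FN1, by 2.30. SPARC fell by 1.04, as POSTN did. Secreted proteases and the plasminogen system had 17 of 26 higher and 3 lower. The plasminogen activators PLAT and PLAU rose by 2.79 and 2.48 and the collagenase MMP13 by 2.53. MMP10 fell by 1.70 and the metalloprotease PAPPA2 by 2.35. MMP13 was at 3.26 over replicates 1, 2, 3 and 6 but 1.04 over replicates 4 and 5. PLAU was at 2.93 and 1.53 in these sets, and MMP10 at -1.16 and -2.85.

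Integrin subunits were higher in 11 of 16 cases and lower in 2, with the fibronectin receptor chain ITGA5 at 1.65 and the laminin receptor chain ITGA3 at -0.38. Targets of YAP, a coactivator that responds to tension and spreading, were higher in 14 of 22 and lower in 2. CYR61 and CTGF, secreted matricellular proteins, rose by 2.54 and 1.99, and YAP1 itself fell by 0.28. TGF-beta and activin genes had 17 of 35 higher and 7 lower. The activin chain INHBA rose by 3.92 and its antagonist follistatin, FST, by 1.34. INHBA was near the floor in parental cells, with between 5 and 15 counts there and between 84 and 210 in PGCC. In the receptor-regulated SMADs, SMAD3 rose by 1.00 and SMAD2 fell by 0.32. Among EGF family genes 9 of 14 rose and 2 fell. The ligands HBEGF and EREG rose by 2.03 and 2.75, and the receptor ERBB2 fell by 0.26. HBEGF was at 2.51 over replicates 1, 2, 3 and 6 but 1.08 over replicates 4 and 5. EREG too was low in parental cells, with between 6 and 28 counts there and between 52 and 118 in PGCC.

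Genes that mark epithelial or mesenchymal state did not move together, with 8 of 21 higher and 4 lower, and a median of 0.13 over replicates 1, 2, 3 and 6 but -0.13 over replicates 4 and 5. Keratin 8, KRT8, rose by 1.49 and its partner KRT18 fell by 0.39. E-cadherin, CDH1, fell by 1.13 from 3.64 ± 1.47 CPM to 1.61 ± 0.366 CPM (SD, n = 6), a low level in both groups, and ESRP2 fell by 0.91 (-0.14 over replicates 4 and 5), while ZEB1, a repressor of epithelial genes, rose by 0.61. S100 genes were higher in 9 of 13 cases, S100A4 by 2.12, with S100P the 1 that fell. Of 9 stemness markers tested, 3 rose, CD44 most, by 0.82, and 5 fell, the aldehyde dehydrogenase ALDH1A1 by 1.13.

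The 13 protein genes of the mitochondrial chromosome took a larger share of counts in PGCC. All genes of that chromosome took 4.03% ± 1.10 of counts in PGCC and 2.64% ± 1.38 in parental cells (SD, n = 6). The ranges overlapped, but the share was higher in 6 of 6 pairs (exact paired permutation test, two-sided, p = 0.03125). MT-ND1 rose by 1.16, MT-ND4 by 0.85, MT-CO1 by 0.61 and MT-CO2 by 0.63, and these are the 4 most abundant genes that rose, with HSP90AA1 (0.43) the fifth. With the block 12 of the 13 passed and without it 4 did, and MT-CO1, MT-CO2, MT-ND4 and HSP90AA1 did not. Their median was 1.12 over replicates 1, 2, 3 and 6 but 0.21 over replicates 4 and 5. Nuclear genes of oxidative phosphorylation did not follow, with 2 of 74 higher and 23 lower, CYC1 among the latter at -0.67.

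In each of the remaining lists the calls ran both ways, and some lists leaned to 1 side. ER chaperones had 10 of 33 higher and 9 lower, with MANF at 0.73 and DNAJC10 at -0.69. Their direction turned with the replicates: 16 were higher and 8 lower over replicates 1, 2, 3 and 6, with a median of 0.16, against a median of -0.46 over replicates 4 and 5. N-glycan assembly genes had 8 of 44 higher, the Golgi mannosidase MAN1A1 most, by 1.73, and 21 lower. That list's median was -0.19, and it lay between -0.25 and -0.07 in the 6 pairs. Heat shock genes had 4 of 23 higher and 7 lower with the block, and 4 in all without it; the mitochondrial chaperone HSPA9 fell by 0.76. Genes of the NRF2, heme and iron response had 5 of 28 higher and 10 lower, with the quinone reductase NQO1 down by 1.18 and ferritin heavy chain, FTH1, down by 0.83. Proteasome subunits had 3 of 32 higher and 10 lower, and glycolytic genes 7 of 21 higher and 3 lower. Nuclear lamina and envelope genes had 11 of 27 higher, with the linker SYNE2 at 2.39 and lamin B1, LMNB1, at 0.80, and 3 lower. Their median was 0.19, and it lay between 0.13 and 0.36 in the 6 pairs. LMNB1 was at 0.31 over replicates 1, 2, 3 and 6 but 1.81 over replicates 4 and 5. Motile cilium genes had 6 of 18 higher, DNAH5 and DNAH12 (1.66) among them, and 2 lower, DNAH1 at -1.67. In the BCL2 family 4 of 15 rose and 5 fell. The death promoter PMAIP1 rose by 1.43 and the survival gene BCL2L1 by 0.51, and BCL2L11 fell by 0.75. PMAIP1 was at 1.86 over replicates 1, 2, 3 and 6 but 0.54 over replicates 4 and 5. The BCL2 family also turned, with 7 higher and a median of 0.19 over replicates 1, 2, 3 and 6 against a median of -0.35 over replicates 4 and 5. The median of heat shock genes was -0.15 and 0.11 in these sets, with 2 higher in the first, and that of the NRF2 list -0.15 and 0.01.

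The 12 libraries without drug gave the same contrast from separate RNA of the same 6 runs. There 7765 genes passed (56.2% of those tested), 3851 higher and 3914 lower. With and without LCL521 together 6876 genes passed in both, which is 88.4% of the calls with the drug and 88.6% of the calls without it, all in the same direction. Over the 13636 genes tested in both, the log2 fold changes had a Pearson correlation of 0.977, a description across genes that share runs and depth, and the median size of the difference between them was 0.07. Side by side, with and without LCL521, IL8 was at 4.85 and 4.67, CDKN1A at 3.82 and 3.69, KIF20A at 3.70 and 3.50, S100P at -2.60 and -2.44, ASNS at -2.27 and -2.24 and ASAH1 at -0.42 and -0.40. The sterol list had 21 genes higher with the drug and 17 without it, with medians of 0.69 and 0.56. The mitochondrial chromosome had 12 and 7, with medians of 0.85 and 0.44.

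The difference between the contrast with and without LCL521 was tested itself, as an interaction over all 24 libraries. By edgeR 0 of 14555 genes passed, and 148 had an unadjusted p under 0.05. With a block for each run within each population 0 passed and 561 had an unadjusted p under 0.05. Both counts are a smaller share of the genes than the 0.05 expected if no gene differed. The test may thus have been conservative, which was not tested. A count of 0 does not show that the contrasts are equal. The smallest p belonged to SCN9A, a sodium channel, whose contrast was 0.91 with the drug and 2.99 without, a difference of -2.08 (standard error 0.50, edgeR unadjusted p = 4.46e-04, adjusted p = 1.00). Its counts were few, between 2 and 13 in parental cells and between 11 and 16 in PGCC with LCL521, and between 1 and 7 and between 17 and 37 without it. Next were XXbac-B476C20.9, with at most 22 counts in any library and a difference of 1.71, and RALGPS1, an activator of Ral GTPases, with -0.84 with the drug and 0.08 without.

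**Figure D5:**
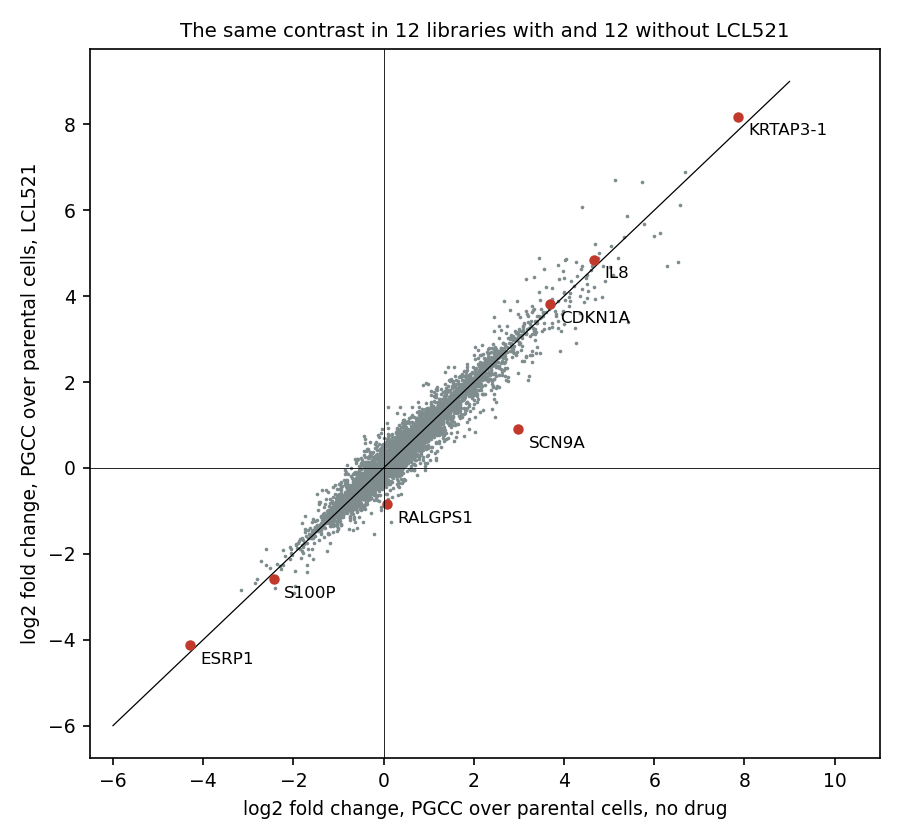
Each point is a gene tested in both contrasts (13636 genes); the horizontal axis is its log2 fold change, PGCC over parental cells, without drug and the vertical axis the same under LCL521, with the line of equality drawn. The cloud follows the line; SCN9A and RALGPS1, 2 of the 3 genes with the smallest p for the difference, are marked off it.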

How the data were processed

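RNA of PPC1 cells was sequenced in 24 libraries of 4 conditions with 6 replicates each, and the 12 with LCL521 were compared here. The authors deposited counts of reads per gene, not normalized, in 1 table with hg19 gene coordinates. The submitters' processing notes name CASAVA, STAR, HTSeq and DESeq2, and the strand setting of the counting is not given in the sources used here. From the deposited counts, 13818 genes were kept by edgeR's filterByExpr (minimum count 10, minimum total 15), scaled by TMM and tested with edgeR 4.0.16 (R 4.3.3) by glmQLFit and glmQLFTest with the replicate number as a block, two-sided, with Benjamini-Hochberg adjustment and a threshold of 0.05. This code was tested on simulated data. CPM are TMM-scaled, and log2 values use a prior count of 2.

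The replicate number was taken to pair the libraries, since by the labels each of 6 runs gave every condition. Deviations from group means correlated at 0.17 to 0.48 between same-numbered libraries (median 0.30, 6 of 6 over 0.1). Between others they correlated at -0.38 to 0.33 (median -0.08), so the ranges overlapped. PGCC replicates 3, 5 and 6 each correlated better with a parental library of another number than with that of their own. These values alone therefore do not settle the pairing of every replicate. Libraries of a group differed by more than counting noise (chi-square per degree of freedom 4.69 to 87.7 over 30 pairs), so none was counted as a repeat. Shares of a library were compared by the exact paired permutation test over 64 sign changes. The difference of contrasts was an interaction over 24 libraries.

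The comparison, the gene lists and some promoter patterns were chosen with earlier results of these data known. Named genes were the 10 largest rises and falls among well expressed genes (mean log2 CPM of at least 3, same direction in 6 pairs, no overlap), up to 3 in each direction and members described by role in each of 46 lists, genes of the study's question, the 5 most abundant in each direction, and genes at the floor. Alternatives were RLE factors, library totals, other filters, DESeq2 1.42.0, limma-voom (limma 3.58.1), no block, a length correction, all 24 libraries, replicate sets and leaving out each replicate.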

Additional observations from a re-analysis of the deposited data

Results flagged for a closer look

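Among 38 sets of 6 libraries examined (6 library measures and 13 genes in each group), 1 held a library whose gap to the nearest of the others was large for the range of its group. The share of counts on replication-dependent histone genes was 0.0243% in replicate 4 of parental cells, with a gap of 0.664 of the group's range, past Dixon's critical value at 95%. Chance alone flags about 1 in 20 such sets. Leaving that replicate out, the share in PGCC was higher by 0.0379 percentage points, against 0.0368 with it.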

How the results depend on the processing

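The count of called genes stayed within 1.5 times in what was run: 6758 to 9264 genes against 7780 with LCL521 under all the alternatives named. For PGCC against UT without LCL521 it was 6541 to 8881 against 7765, and for the interaction 0, under fewer alternatives: no block, replicates 1, 2, 3 and 6 alone, leaving out each replicate and, for the interaction, a block within each population. Without the replicate block 6758 genes passed, 6678 of them among the 7780. Of 213 genes named, 11 lost their call without the block: ACTB, MT-CO1, MT-CO2, MT-ND4, HSP90AA1, BCL2L1, MIS12, REL, SREBF1, TGFA and YAP1. ACTB, MCM6, MIS12 and SCAP lost it when only library totals were used. Taking library totals moved the higher share of calls from 52.3% to 58.3%. List medians that turned sign under another scaling or filter were all close to 0.

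With 5 pairs the exact paired permutation test cannot go below p = 0.0625, so the shares of a library lose their call whichever replicate is left out. The difference, PGCC minus parental cells, then lay between 1.23 and 1.51 percentage points for the mitochondrial share, -3.83 and -3.18 for ribosomal proteins, 0.0348 and 0.0380 for histones and -0.726 and -0.556 for the top 10 genes, and between 2457 and 2696 for the genes detected.

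Some genes changed sign, all but ATF3 and ACTB without a call over the 6 pairs. RRAGC was at 0.033 with library totals, 0.011 with at least 10 counts in every library and 0.14 in replicates 1, 2, 3 and 6. FZR1 was at 0.052, 0.030 and 0.049 under the same alternatives. BAX was at -0.0084 with RLE factors, -0.040 without the filter, -0.0085 with DESeq2, -0.00090 with the length correction, -0.019 with all 24 libraries and -0.040 in replicates 4 and 5. RELA was at -0.011, -0.042, -0.011, -0.023, -0.023 and -0.039 in that order. NFKB1 was at -0.016 without the filter, -0.0049 with all 24 libraries and -0.63 in replicates 4 and 5. SREBF2 (0.050), VEGFA (0.092) and ATF4 (0.44) turned in replicates 1, 2, 3 and 6, ATF3 (-0.24), ACTB (0.025), STX3 (-0.21) and SESN2 (-2.04) in replicates 4 and 5, and SESN2 also without the block (-0.39). Leaving out 1 replicate gave ranges of -0.33 to 0.12 for ATF4, -0.013 to 0.018 for BAX, -0.083 to 0.060 for FZR1, -0.085 to 0.17 for NFKB1, -0.031 to 0.015 for RELA and -0.12 to 0.055 for RRAGC. The cause was not tested.

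Counting depth limits genes with few counts, such as SCN9A, and the 12 libraries hold 1 cell line. Irradiation and size selection were applied together and cannot be told apart.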

Other observations

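Among genes without a protein product that had enough counts to be tested, more were higher than lower in PGCC. Few had enough: 386 of 6015 lincRNA and 441 of 4586 antisense genes. Any with enough counts only in PGCC had to be higher there, so these numbers are a description. Of 386 lincRNA genes tested 149 were higher and 67 lower in PGCC, with a median log2 fold change of 0.28. For 441 antisense genes the counts were 143 and 49 with a median of 0.30, and for 347 processed transcripts 128 and 49 with a median of 0.27. For 12025 protein-coding genes they were 3499 and 3418, with a median of -0.01, and for 522 pseudogenes 126 and 106, with 0.02. Reads of an antisense gene and its partner cannot be told apart where counting does not use strand. The share of counts on all genes not classed as protein-coding was 1.57% in PGCC and 1.49% in parental cells (exact paired permutation test, two-sided, p = 0.1875, n = 6 pairs).

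By length the medians of 5 equal classes lay between -0.02 and 0.03.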
